A study of Mus musculus with 8 samples.

Results

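Of the 860 FAIRE peaks called open in Hepa-1 mouse hepatoma cells after long-term chromate, 334 (38.8%) lay between genes and away from any transcription start site (TSS), and these 334 regions are described here. They were chosen by the peak call itself and by position: the centre of the peak was more than 5000 bp from the TSS of every RefSeq transcript on the GRCm38/mm10 genome and outside the start-to-end span of every RefSeq gene. Their score, width and distance to a TSS are therefore descriptions, and no test between peaks was made. Of the other peaks of the list, 272 were as far from a TSS but inside a gene and 254 lay within 5000 bp of a TSS. The treated cells (Cr0.5) received 0.5 µM CrK2O4, a source of hexavalent chromium, every 24 hours over 20 passages, or about 50 cell divisions, and their control cells (Cr0.5 control) were passaged as often without chromium. FAIRE-seq covered 1 library of each, so the list rests on 1 library pair of 1 cell line. A second list of 2945 peaks, 994 of them placed by the same rule, compared cells given 25 µM CrK2O4 for 90 minutes (Cr25) with their own control, again with 1 library each. RNA-seq covered 2 Cr25 libraries and 2 control libraries whose labels name no regimen. Not analysed here were RNA-seq of the 0.5 µM regimen and any regions more open in controls.

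FAIRE recovers the DNA that formaldehyde does not fix to protein, so that stretches free of nucleosomes stay in the watery layer when phenol removes protein. Open stretches between genes are known to hold enhancers, insulators and other distal elements, many of which carry short sequences read by transcription factors. AP-1, a dimer of Fos and Jun family proteins, binds the heptamer TGACTCA or its complement and is a known responder to stress, growth factors and metals. BACH1 and BACH2 pair with small Maf proteins on an extended form of this heptamer, and CTCF is a zinc finger protein of insulators and chromatin loops.

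The main observation on these regions is the AP-1 heptamer within 200 bp around the centre, found in 55 peaks, 47 of them with 1 heptamer. How often background windows hold 2 heptamers was not counted. Printed here are the sequences of the 8 peaks with 2. They are given 5′ to 3′ on the plus strand of GRCm38/mm10 with the heptamers in capitals, each named by the position printed and the gene with the nearest TSS.

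chr6:32699961-32700008, Gm32007: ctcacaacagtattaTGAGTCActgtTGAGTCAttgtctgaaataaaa
chr6:29082939-29082989, Lep: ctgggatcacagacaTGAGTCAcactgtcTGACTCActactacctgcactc
chr4:100752442-100752511, Cachd1: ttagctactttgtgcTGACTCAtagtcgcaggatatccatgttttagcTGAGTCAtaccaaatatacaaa
chr13:87929685-87929745, Gm41012: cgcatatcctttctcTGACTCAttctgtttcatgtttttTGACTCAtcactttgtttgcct
chr8:54216361-54216456, Gm33153: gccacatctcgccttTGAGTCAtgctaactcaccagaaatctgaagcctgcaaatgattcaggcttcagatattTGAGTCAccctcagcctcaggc
chr6:95269710-95269778, AY512915: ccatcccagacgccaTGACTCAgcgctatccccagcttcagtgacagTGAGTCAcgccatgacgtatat
chr1:143537086-143537181, Gm35303: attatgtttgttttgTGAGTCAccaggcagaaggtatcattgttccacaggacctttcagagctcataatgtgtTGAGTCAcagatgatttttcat
chr9:3261073-3261169, Gm31138: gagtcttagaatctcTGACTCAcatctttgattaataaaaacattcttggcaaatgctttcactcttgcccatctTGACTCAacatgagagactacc

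All 8 of these peaks consisted only of 50 bp stretches that are unique in the genome. A further 5 peaks, shown next because they hold the longer BACH sequence (GCTGACTCA or GCTGAGTCA on either strand, in capitals), had a single heptamer, and the Cachd1 and AY512915 peaks above also hold a BACH sequence.

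chr12:77648022-77648070, Gm35240: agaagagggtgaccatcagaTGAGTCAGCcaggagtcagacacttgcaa
chr13:73020558-73020606, Gm30049: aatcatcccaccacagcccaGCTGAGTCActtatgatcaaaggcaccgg
chr5:103365369-103365417, Gm30443: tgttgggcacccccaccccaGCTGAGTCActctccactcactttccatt
chr6:51720914-51720962, Gm38811: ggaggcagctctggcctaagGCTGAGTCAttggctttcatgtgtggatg
chr9:116343144-116343192, D730003K21Rik: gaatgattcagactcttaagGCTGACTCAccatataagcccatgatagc

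Each peak carries 1 value, the authors' MACS score, 10 times the negative log10 of the p-value of the treated library against its control. The list gives no reads per peak, and the study's methods state only an approximate sequencing depth for its libraries. The scores of the 334 peaks had a median of 57.4 between extremes of 50 and 1729. Most lay near the lowest score, with 197 of them (59.0%) under 60. Scores of 100 or more belonged to 17 peaks. The median width was 479 bp, the narrowest peak had 226 bp and the widest 6365 bp, and 16 peaks were wider than 1000 bp. The TSS-distal peaks inside genes had a median score of 57.2 and a median width of 509 bp, and the peaks near a TSS 58.4 and 592 bp. The 994 peaks between genes of the 25 µM list were much narrower, with a median of 116 bp.

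The centres of the 334 peaks lay from 5169 to 986869 bp from the nearest TSS, with a median of 40230 bp. For comparison, the genome was cut into 200 bp windows, and the 6382777 windows that meet the same position rule (1277 Mb in all) served as background in what follows. Their median distance to a TSS was 55626 bp. Between 5000 and 10000 bp from a TSS lay 48 peaks (14.4%, 95% Wilson interval 11.0% to 18.5%) against 9.11% of the background windows. Between 100000 and 500000 bp lay 75 peaks (22.5%, 18.3% to 27.2%) against 30.3%. From 10000 to 50000 bp the share was 42.8% (37.6% to 48.2%) against 38%. From 50000 to 100000 bp it was 17.1% (13.4% to 21.5%) against 19%, and beyond 500000 bp 3.29% (1.85% to 5.8%) against 3.62%. The intervals of these last classes held the background share. By the median and the classes named first, the peaks stood nearer to start sites than the sequence open to them. The intervals cover counting error only. The nearest TSS was that of a long non-coding RNA for 149 peaks and of a protein-coding gene for 145, and 210 peaks (62.9%) lay upstream of it.

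Of the 334 peaks, the 3 closest to the distance limit lay at 5169 bp from Pnp, the purine nucleoside phosphorylase gene, at 5215 bp from Gm30432 and at 5358 bp from Gm30443. Their scores were 57.5, 54.4 and 85.5. On the other side of the limit, 3 peaks at 4886 bp from Ralb, 4835 bp from Tnxb and 4827 bp from Gm41308 had scores of 50.1, 56.6 and 85.3. The peaks near a TSS reached up to 4914 bp, so these were not all of the closest ones. The rule also depends on the gene catalogue: the centre of 27 of the 334 peaks lay inside a gene of the GENCODE annotation, which was not used to choose them.

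The AP-1 heptamer occurred in the central 200 bp of 55 of the 334 peaks (16.5%, 12.9% to 20.8%). It occurred in 2.95% of the background windows, so the share in the peaks was 5.57 times that of eligible sequence. Windows of the same length 5000 bp to either side of each peak held it in 27 of 664 cases (4.07%), and windows 2000 bp to either side in 16 of 665 (2.41%). The heptamer was denser near the centre than farther out. Within 100 bp of the centre there were 63 heptamers, or 0.943 per kb, at a median distance of 55 bp from it. The central 100 bp held a heptamer in 23 peaks (6.89%). Between 100 and 200 bp from it there were 20, or 0.300 per kb, and from over 1000 to 2500 bp there were 160, or 0.160 per kb. GC content was lower in the same place, at 36.8% within 100 bp against 41.1% in the outer zone.

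**Figure D1:**
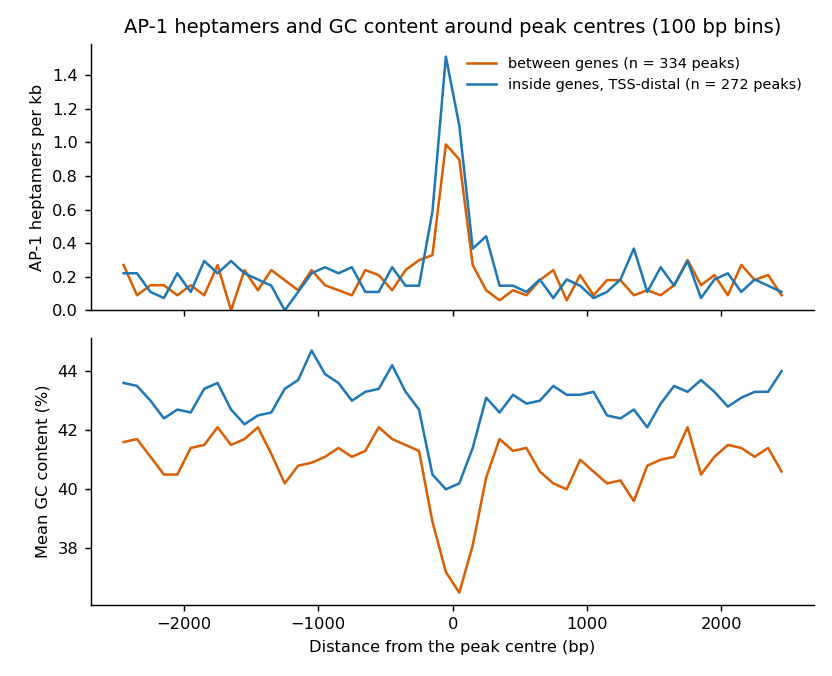
AP-1 heptamers per kb (top) and mean GC content in percent (bottom) against the distance from the peak centre in bp, in 100 bp bins, for the 334 peaks between genes (orange) and the 272 TSS-distal peaks inside genes (blue). Heptamers reach 0.988 and 0.898 per kb in the bins on either side of the centre of the peaks between genes, while their GC content is lowest there, at 36.5%.

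The share of TSS-distal peaks inside genes with the heptamer was 20.6% (16.2% to 25.8%), that of peaks near a TSS 13.0% (9.40% to 17.7%) and that of the 25 µM peaks between genes 15.2% (13.1% to 17.6%). These intervals overlap that of the peaks between genes. Of the 63 heptamers in central windows, 24 (38.1%, 27.1% to 50.4%) followed a purine and preceded a pyrimidine, the flanks that AP-1 is known to prefer, against 22.1% of the 191021 heptamers in background windows. Only 5 of the 63 lay in sequence that the genome file masks as repeat.

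The AP-1 peaks were not spread evenly over the 334 regions. Under 30% GC in the central window, 2 of 96 peaks (2.08%, 0.573% to 7.28%) held the heptamer, against 1.98% of background windows of that composition. From 30 to 35% GC, 4 of 46 peaks (8.7%, 3.43% to 20.3%) held it, against 2.42%, and from 35 to 40% GC 8 of 55 (14.5%, 7.56% to 26.2%), against 2.75%. From 40 to 45% GC, 18 of 50 peaks (36%, 24.1% to 49.9%) held it, against 3.35% of such windows. From 45 to 50% GC the count was 14 of 56 (25.0%) and at 50% GC or more 9 of 31 (29.0%), against 3.47% and 3.15%. The interval thus held the background share among the peaks under 30% GC and lay above it in each of the other classes. TSS-distal peaks inside genes showed a similar rise. The heptamer was in 1 of 58 of them (1.72%) under 30% GC, 10 of 41 (24.4%) from 40 to 45% and 20 of 58 (34.5%) at 50% or more.

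**Figure D2:**
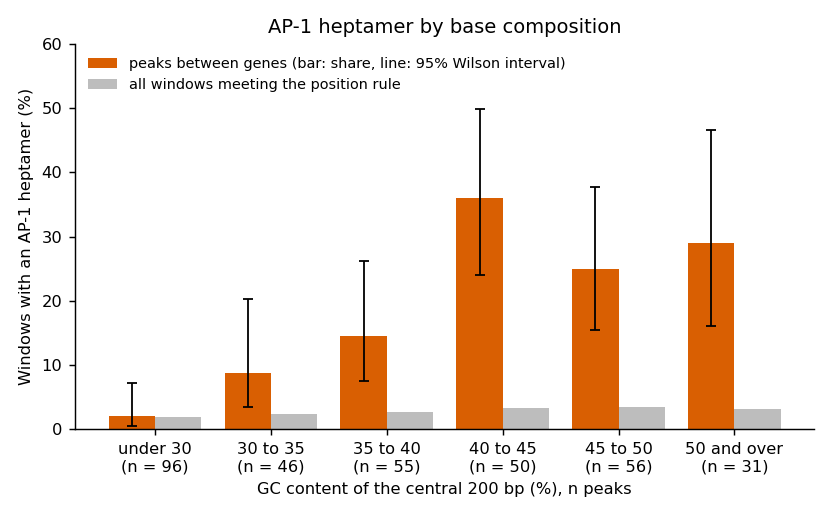
Percent of 200 bp windows with an AP-1 heptamer, by GC content of the window in percent, for the central windows of the 334 peaks (orange bars, lines are 95% Wilson intervals) and all background windows (grey bars). The peaks are near the background under 30% GC (2.08% against 1.98%) and exceed it from 40 to 45% GC (36% against 3.35%).

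Repeated sequence divided the peaks in a similar way. Each 50 bp stretch of a peak was searched in the genome, because the reads had 50 cycles. All stretches were unique in 179 peaks, and 49 of these (27.4%, 21.4% to 34.3%) held the heptamer. Of the 51 peaks with 90% to under 100% unique stretches 3 held it, and of the 63 with 50% to under 90% likewise 3. Of the 41 peaks with fewer than 50% unique stretches none did, which allows a share of up to 8.57%. Among the 69 peaks that were unique throughout and had 40 to 50% GC, 30 (43.5%, 32.4% to 55.2%) held it. No background share of the heptamer was computed for windows that are unique throughout. Of the 57 peaks without a masked base in the central window 18 did (31.6%, 21.0% to 44.5%), against 4.20% of the 1048891 background windows without masked bases. Whether composition or repeated sequence separates the peaks with and without the heptamer was not tested.

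The AP-1 peaks had moderate scores, from 50.2 to 88.7 with a median of 60.1, and none of the 17 peaks with a score of 100 or more was among them. Their median width was 517 bp and their median distance to a TSS 24142 bp, against 477 bp and 44525 bp in the 279 peaks without the heptamer. The heptamer peak with the highest score among peaks with at least 90% unique stretches was chr6:32699805-32700149 (score 87.4), 42754 bp upstream of Gm32007, with the closely spaced pair of heptamers printed first above. Next came chr5:103364968-103365702 (score 85.5), 5358 bp downstream of the TSS of Gm30443, and chr12:77647724-77648276 (score 80.1), 18245 bp downstream of that of Gm35240. Both hold the BACH sequence.

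The peak chr6:29082655-29083121 (score 75.5) lay 22667 bp downstream of the TSS of Lep, which encodes the hormone leptin. The peak chr11:100198690-100199196 (score 71.4) lay 5697 bp upstream of Krt9, a keratin gene. The peak chr6:83478818-83479053 (score 68.3) lay 15305 bp downstream of the TSS of Dguok, which encodes mitochondrial deoxyguanosine kinase. The other heptamer peaks among the highest scores were nearest to Atp10a (77), Hmgb3 (76.3), Gm23447 (71.6) and Gm51552 (68.6).

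BACH and CTCF sequences were rarer and also more frequent than in the background. The BACH sequence, which contains the heptamer, occurred in 7 central windows (2.10%, 1.02% to 4.26%) against 0.347% of background windows. All 7 BACH peaks count among the 55 AP-1 peaks. The BACH share was 6.03 times its background, near the 5.57 times of the heptamer, so the values show no BACH excess beyond that of the heptamer. The BACH sequence was in 1.10% of TSS-distal peaks inside genes, 1.97% of peaks near a TSS and 2.01% of the 25 µM peaks between genes. A CTCF consensus of 12 positions occurred in 7 central windows (2.10%, 1.02% to 4.26%) against 0.0728% of background windows, in none of the 664 windows 5000 bp to the side and in 2 of the 665 at 2000 bp. No peak held both a CTCF and an AP-1 sequence in the central window. The TSS-distal peaks inside genes held the CTCF consensus in 3 of 272 windows (1.10%) and the 25 µM peaks between genes in 26 of 994 (2.62%, 1.79% to 3.81%). The 7 CTCF peaks are shown because none of them holds the AP-1 heptamer in its central window, again on the plus strand and with the consensus in capitals.

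chr11:55039803-55039854, Anxa6: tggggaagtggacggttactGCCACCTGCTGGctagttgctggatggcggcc
chr11:55240767-55240818, Slc36a1: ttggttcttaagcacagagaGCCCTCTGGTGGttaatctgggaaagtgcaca
chr11:104590284-104590335, Myl4: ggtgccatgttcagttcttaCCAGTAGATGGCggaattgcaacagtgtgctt
chr17:35578351-35578402, Gm41577: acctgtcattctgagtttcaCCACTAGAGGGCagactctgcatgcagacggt
chr3:27251103-27251154, Gm42192: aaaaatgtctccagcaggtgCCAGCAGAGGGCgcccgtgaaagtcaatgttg
chr4:33119296-33119347, Gabrr1: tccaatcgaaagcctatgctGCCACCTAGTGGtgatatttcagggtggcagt
chr7:114580566-114580617, Cyp2r1: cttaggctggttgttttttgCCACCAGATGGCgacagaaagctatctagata

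All 7 CTCF peaks were unique throughout, with scores from 50.1 to 74.7, and 3 of them lay on chromosome 11. A pair of these, near Anxa6 (a calcium-dependent membrane-binding annexin) and Slc36a1 (a proton-coupled amino acid transporter), scored 60.5 and 65.5. The peak with the highest score of the 7 lay 13300 bp upstream of Gabrr1, a subunit of a GABA receptor, and the one near Cyp2r1, a vitamin D 25-hydroxylase, scored 62.3.

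The other sequences searched were those of liver and general factors. HNF4A (CAAAGTCCA) was found in 3 peaks (0.898%, 0.306% to 2.61%, background 0.248%) and CEBP (TTGCGCAA or TTGCACAA) in 3 peaks (background 0.664%). FOXA (TGTTTAC) was found in 6 peaks (1.80%, 0.826% to 3.86%) against 3.03% of background windows, and in 19 of 272 peaks inside genes (6.99%, 4.52% to 10.7%), an interval above that of the peaks between genes. The CRE (TGACGTCA) was found in 2 peaks (0.599%, 0.164% to 2.16%) against 0.0873%. The ETS sequence (CCGGAAGT) was found in none, which allows up to 1.14% (background 0.0886%), whereas 10 of 254 peaks near a TSS held it (3.94%, 2.15% to 7.09%). The shares of the E-box (CACGTG, 2.10%), the AHR core (GCGTG, 6.29%) and the NFY box (CCAAT, 29.3%) had intervals that hold the background shares of 1.60%, 5.28% and 32.4%. A match is a string of letters and does not show that the factor was bound.

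**Figure D3:**
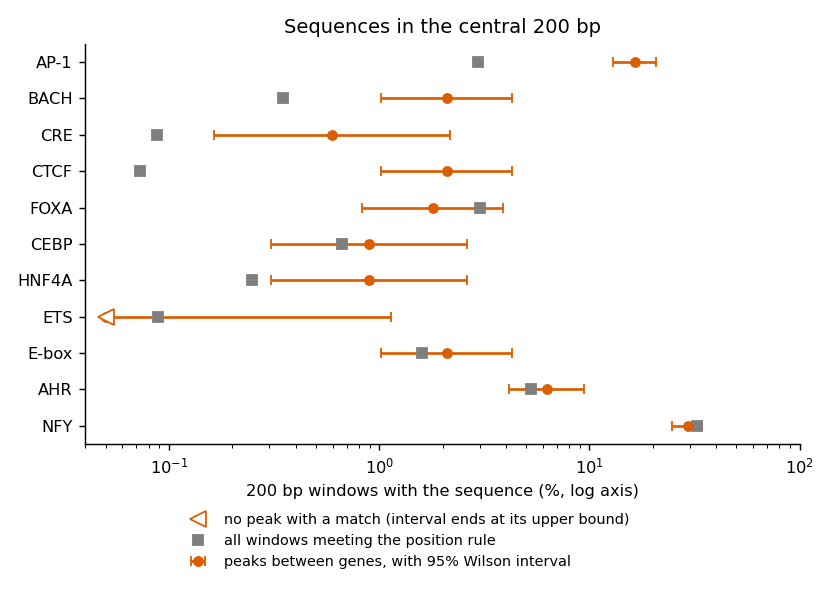
Percent of 200 bp windows that hold each sequence (log axis) in the central windows of the 334 peaks (orange points with 95% Wilson intervals) and in all background windows (grey squares). AP-1, BACH, CRE, CTCF and HNF4A stand to the right of the background with intervals that exclude it, and ETS had no match in the peaks. Every BACH match is also an AP-1 match.

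Many of the 334 peaks were AT-rich. The central window held under 30% GC in 96 peaks (28.7%, 24.2% to 33.8%), against 7.55% of background windows. Of the 272 TSS-distal peaks inside genes, 58 were also under 30% GC there. From 40 to 50% GC the peaks between genes fell short of the background, with 106 peaks (31.7%, 27.0% to 36.9%) against 41.4%. The median GC content was 37.4%, against 40.5% in TSS-distal peaks inside genes and 54.2% near a TSS, and 48.7% in the narrower 25 µM peaks between genes. Perfect tandem runs of at least 24 bp with a unit of 1 to 6 bp are the simple repeats of a genome. They lay in 42 central windows (12.6%, 9.44% to 16.6%) against 4.99% of background windows. TSS-distal peaks inside genes held such a run in 27 of 272 central windows (9.93%, 6.91% to 14.1%), and peaks near a TSS in 9 of 254 (3.54%, 1.88% to 6.6%). In the AT-rich class of the peaks between genes the share was 19.8%, against 8.20% of background windows of that composition. A pair of AT-rich peaks, chosen after their values were seen, stood at the low GC end of this class. Over the whole peak GC content was 21.8% near Dnah5 and 14.7% near Gm30225, and the Gm30225 peak was 95.2% masked and 46.5% unique. The sequences of this pair show an extreme, not a typical window. They are the central 120 bp of the peaks near Dnah5 (score 56.2) and Gm30225 (score 96.9) on the plus strand, in lower case throughout since no sequence searched is marked.

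chr15:28122065-28122184, Dnah5: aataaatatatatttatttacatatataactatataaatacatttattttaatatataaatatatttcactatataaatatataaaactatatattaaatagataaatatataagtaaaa
chr2:43026397-43026516, Gm30225: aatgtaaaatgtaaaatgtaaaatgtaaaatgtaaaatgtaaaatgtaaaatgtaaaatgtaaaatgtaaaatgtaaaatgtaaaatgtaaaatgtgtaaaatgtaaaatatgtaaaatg

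AT-rich peaks were not all repeated sequence. All 50 bp stretches were unique in 49 of the 96 (51.0%), close to the 130 of 238 (54.6%) among the other peaks. Their median score of 57.2 was also close to the 57.5 of the others, and their median distance to a TSS was 62620 bp against 30856 bp.

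In 41 of the 334 peaks (12.3%, 9.18% to 16.2%) unique 50 bp stretches made up less than 50% of the peak, and in 13 there was none. The share was 6.25% (3.94% to 9.78%) in TSS-distal peaks inside genes and 2.36% (1.09% to 5.06%) near a TSS. It was not high for sequence between genes as such: of every 200th background window (31936 windows), 19.2% had fewer than 50% unique stretches, against 14.4% (11.0% to 18.5%) of the central windows of the peaks. How the reads of such stretches were placed in the alignment is not given in the sources used here, and the part of repeated sequence in the peak calls was not tested.

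None of the 17 peaks with a score of 100 or more was unique throughout, against 179 of the other 317 (56.5%, 51.0% to 61.8%). Over the whole peak, 6 of the 334 (1.80%, 0.826% to 3.86%) held mitochondrial sequence copied into the nuclear genome. So did 3 of 272 TSS-distal peaks inside genes (1.10%, 0.376% to 3.19%) and 2 of 254 near a TSS (0.787%, 0.216% to 2.82%). None of the 31936 background windows examined held it, but these were only 200 bp wide. Mitochondrial sequence was present in 5 of the 17 peaks (29.4%, 13.3% to 53.1%) and in 1 of the 317. The peak chr12:97061311-97062139 (score 370), between genes and 180531 bp upstream of Gm40552, shared 34.1% of its stretches with the mitochondrial genome. The others were near Nxph1 (13.6%, score 188), Abcb11, the bile salt export pump gene (12.4%, score 133), 4933402J10Rik (11.3%, score 233) and Gm40746 (9.13%, score 184).

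**Figure D4:**
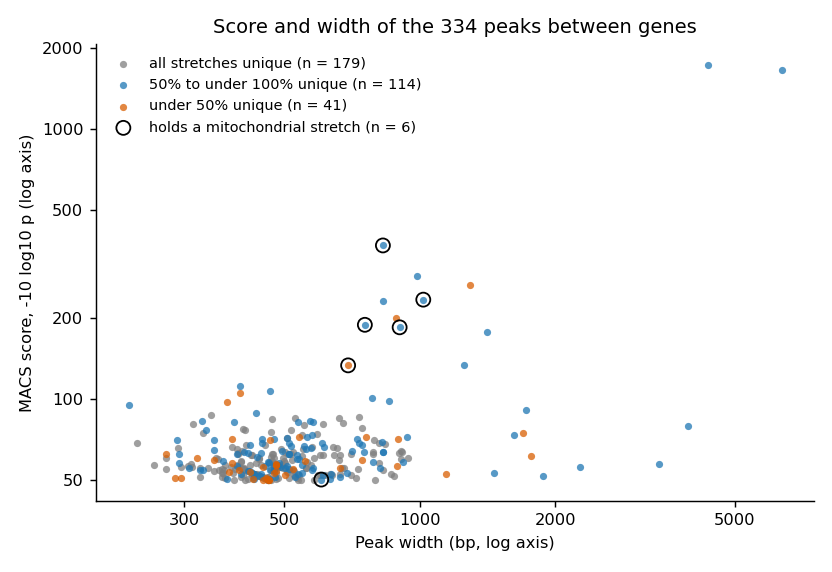
MACS score against width in bp (both log axes) of the 334 peaks, coloured by the percent of unique 50 bp stretches, with rings around the 6 peaks that share a stretch with the mitochondrial genome. No peak that is unique throughout (grey) reaches a score of 100, while 5 of the 6 ringed peaks do.

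The 2 widest peaks had the 2 highest scores, whereas the next 3, of 3938, 3398 and 2270 bp on chromosomes X, 11 and 4, scored 79.2, 57.3 and 56. The peak chr14:19415449-19419808 (4360 bp, score 1729) was 82.3% masked as repeat, and a stretch of it occurred 62 times in the genome. The peak chr17:39842643-39849007 (6365 bp, score 1654) had 62.6% GC. It overlapped the spans of AY036118 and of the RefSeq pseudogene Rn18s-rs5, a copy of 18S ribosomal RNA sequence, although its centre lay outside both. A further 2 peaks touched a gene span with an edge only. The central 120 bp of this pair show the contrast in composition (plus strand, no capitals).

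chr14:19417569-19417688, Gm41101: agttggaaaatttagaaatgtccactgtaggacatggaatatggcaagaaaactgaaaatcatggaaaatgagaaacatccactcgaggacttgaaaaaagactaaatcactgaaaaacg
chr17:39845766-39845885, AY036118: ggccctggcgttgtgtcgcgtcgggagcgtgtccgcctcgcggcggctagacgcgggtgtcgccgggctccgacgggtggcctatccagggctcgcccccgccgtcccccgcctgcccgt

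Below these came the peak chr2:98663457-98664444 (score 286), chr6:3200483-3201775 (score 264), chr12:74803787-74804616 (score 230) and chr2:98664451-98665338 (score 200). The chromosome 12 peak of score 230 was 99.2% unique and 71.3% masked. Among peaks with at least 90% unique stretches the scores then dropped to 112 near Plekha1 and, in peaks unique throughout, to 87.4 near Gm32007, 85.1 near Dpy19l1, 85.0 near Kalrn and 84.3 near Il1rl1, the receptor of interleukin 33.

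The telomere unit TTAGGG, repeated at least 2 times in a row, lay in the central window of 5 peaks (1.5%, 0.641% to 3.46%) against 0.0201% of background windows. The 5 peaks inside genes with such a repeat made up 1.84% of their class. The peaks between genes were nearest to Mir7211, Gm25614, Nkx2-6, Gm31473 and Asmt, and their scores ran from 56.8 to 71.9. The longest run, 271 bp, was in chrX:170758075-170758613, 85700 bp downstream of the TSS of Asmt, and no stretch of that peak was unique. Runs of all kinds were found in 87 peaks (26.0%), of which 26 had a unit of 4 bp and 24 a unit of 5 bp.

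Most peaks stood alone, and 17 of the 334 lay within 10000 bp of another one, in 7 groups. The 4 peaks of the largest group spanned chr2:98661989-98667722 near Gm33780, scored from 90.7 to 286 and were 36.8% to 67.3% unique. A group of 3, at chrX:125115953-125123018, was 0% to 39.9% unique and held the 3 peaks farthest from any TSS, 980282 to 986869 bp from Vmn2r121, a vomeronasal receptor gene. A stretch of the last of these occurred 90122 times in the genome. Vmn2r121 was the nearest gene of 5 peaks, Gm33780 of 4, and Gm41012 and Cldn34c1, a claudin family gene, of 3 each. The Gm41012 peaks were unlike the other such sets: they were spread over 129758 to 637966 bp from the TSS, were at least 98.1% unique, and the nearest of them holds a pair of AP-1 heptamers. Of the 334 peaks, 19 lay within 200000 bp of an assembly gap.

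Relative to the eligible sequence of each chromosome the density of peaks was 0.262 per Mb in all. It was highest on chromosomes 18 (0.463 per Mb, 20 peaks), 11 (0.458, 21 peaks), 2 (0.452, 33 peaks) and 6 (0.425, 27 peaks). It was lowest on Y (0.0242, 2 peaks) and on chromosome 4 (0.129, 9 peaks). Chromosome 11 had no peak with fewer than 50% unique stretches, whereas on X 9 of 24 peaks had at least 50% unique stretches. Chromosome copy numbers of these cells were not analysed here.

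**Figure D5:**
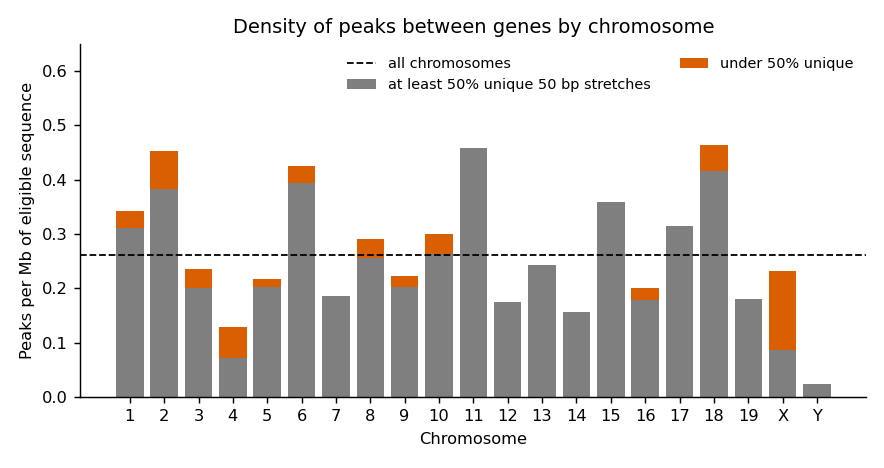
Peaks between genes per Mb of eligible sequence on each chromosome, split into peaks with at least 50% unique 50 bp stretches (grey) and under 50% (orange), with the density over all chromosomes (dashed line, 0.262 per Mb). Chromosomes 2, 6, 11 and 18 stand above 0.4 per Mb, and most of the bar of X is made of peaks with few unique stretches.

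Overlap with the acute regimen was limited to 7 peaks (2.10%, 1.02% to 4.26%) that overlapped a peak of the 25 µM list by 1 bp or more, or 0.238% of that list. In each case the acute peak lay wholly within the wider long-term peak. The pair on chr7:58443332-58443736, 212608 bp upstream of Atp10a, had scores of 77 in the long-term and 57.4 in the acute list, and that on chrX:71573076-71573485 near Hmgb3, a high mobility group gene, 76.3 and 52.8. The order was the reverse near Tlr5, the flagellin receptor (chr1:182943980-182944503, 63.7 and 71.5), and near Gm24839 (chr5:126537876-126538556, 55.6 and 82.6). These 4 long-term peaks hold the AP-1 heptamer and are unique throughout. The heptamer near Gm24839 lies outside the acute peak, and those near Atp10a, Hmgb3 and Tlr5 lie inside it. The scores come from separate pairs of libraries, and the differences between lists were not tested. The sequences around the heptamers of the Atp10a and Hmgb3 peaks are shown as regions called open under both regimens (plus strand, heptamer in capitals).

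chr7:58443471-58443537, Atp10a: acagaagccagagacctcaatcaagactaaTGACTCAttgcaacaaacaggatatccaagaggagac
chrX:71573281-71573347, Hmgb3: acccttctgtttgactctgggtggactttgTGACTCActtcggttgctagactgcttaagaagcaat

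The remaining shared peaks, near Cfap300, Gm33336 and Gm33780, lack the heptamer in their central window, and the last of them is part of the chromosome 2 group and was 51.3% unique.

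The RNA-seq libraries belong to the 25 µM regimen, so they show what the genes near the 334 peaks did in acutely treated cells, not in the cells in which the peaks were called. The nearest TSS of the peaks belonged to 314 genes, of which 154 were in the count table, 36 of those with no count in any library. After removal of low counts 71 genes were tested, and 3 of them (4.23%) differed between Cr25 and control at an adjusted p under 0.05 (edgeR quasi-likelihood test, 2 against 2 libraries). The background was 4.63% of 13619 tested genes in either direction and 2.85% for genes lower in treated cells, so the share near the peaks was close to that of all genes. All 3 were lower in treated cells, and 21 of the 71 (29.6%) had an unadjusted p under 0.05, against 30.7% of all tested genes. The median log2 fold change of the 71 genes was -0.11, against -0.005 over all tested genes, and 56.3% of them were below 0 against 50.4% of all. The labels do not say that the libraries came from separate cultures, so that p-values measure only the spread between these libraries.

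Atp10a, a phospholipid flippase gene, had 69 and 72.9 CPM (counts scaled to library size) in the treated libraries and 113 and 111 in the controls. The groups did not overlap, and the log2 fold change was -0.66 ± 0.10 (SE, edgeR adjusted p = 0.0486). Its peak is among the AP-1 peaks shared by both lists, at a distance of 212608 bp. Pak3, a p21-activated kinase gene, had no count in either treated library and 21 and 23 counts in the controls, at least 6.20-fold lower against a floor of 3 counts per library (edgeR adjusted p = 0.0439). Its peak, 35302 bp upstream of the TSS, holds no heptamer in its central window and was 71.0% unique. Cracr2a, which encodes a calcium sensor of store-operated calcium entry, had 3 and 1 counts in the treated libraries and 24 and 27 in the controls (log2 fold change -3.37 ± 0.50, edgeR adjusted p = 0.0441). Pak3 and Cracr2a were thus present at a trace in control cells. Without control replicate 1 or control replicate 2 1 gene of 75 was called, Pak3 (background 2.07% and 2.02% of all genes tested), while the edgeR adjusted p of Atp10a became 0.507 and 0.479. Calls rose in number without Cr25 replicate 1 or 2, to 53 of 75 and 46 of 76 (77.6% and 67.2% of all genes tested). DESeq2 called 9 of the 71, against 15.2% of all tested genes. The genes nearest to 3 or more peaks were not tested: Vmn2r121 had no count, Cldn34c1 between 0 and 3 counts per library, and Gm33780 and Gm41012 were not in the count table.

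Of the genes nearest to the 55 AP-1 peaks, 54 in number, 16 were tested and 1 (6.25%), Atp10a, differed, against 4.63% of all tested genes. Their median log2 fold change was -0.12.

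Transcripts of the factors whose sequences were searched were mostly present. Of the 25 genes of this list 21 were tested, and none passed the threshold at 25 µM with edgeR (7 at an unadjusted p under 0.05, 4 adjusted past it by DESeq2, namely Nfe2l2, Maff, Mafk and Foxa1). Over all tested genes 30.7% had an unadjusted p under 0.05 and DESeq2 called 15.2%. Per kb of exon, Jund was the most abundant Fos or Jun gene in control cells, with 78.4 and 76.3 RPKM (counts scaled to exon length and library size), followed by Junb (61.8 and 61.0) and Fosl1 (49.7 and 50.9), while Fos was at 4.68 and 5.12. Fosl1 showed how far the treated libraries differ, with 61.2 and 353 CPM against 84.8 and 86.9 in the controls. Maff, a small Maf gene, had 92.4 and 138 CPM against 55.8 and 54.3, and Nfe2l2, which encodes the oxidative stress regulator NRF2, 615 and 574 against 391 and 391, with adjusted p-values of 0.071 and 0.0763 by edgeR and 0.000889 and 0.012 by DESeq2. Ctcf was at 85.7 and 63.8 CPM against 85.8 and 83.7. Bach1 had 7.97 and 7.81 RPKM in the controls and Bach2 0.0953 and 0.0775. Batf had 1 count in all, and Cebpa none in any library.

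The liver identity of the line was only in part visible. Of 12 hepatocyte and hepatoma markers, 3 of which are also among the factors, Krt8, Krt18, Trf, Alb and Afp were abundant in controls, the last at 71.5 and 72.2 RPKM, whereas Hnf4a was at 0.0489 and 0.0544 RPKM and Apoa1 had no count in the controls. The summed level of the 12 was 4227 and 4365 CPM in the controls and 7477 and 8767 CPM in the treated libraries. Much of the rise was Alb alone, at 905 and 948 CPM in the controls and 3667 and 3550 in the treated libraries. Of the 10 tested 3 rose: Alb, Ttr and Apob. Ttr had only 12 and 13 counts in the controls and Apob 23 and 26. Of all tested genes 1.78% rose. Of 9 markers of other cell types, Cdh5 had no count and Ptprc 0 to 3 per library. Dcn (207 and 210 RPKM in the controls) and Col1a1 (34.3 and 34.9), genes of fibroblasts, were well expressed. Cd68, a leukocyte marker like Ptprc, was at 6.23 and 6.65 RPKM in the controls. Krt14 was at 1.35 and 1.56 RPKM there, Pecam1 at 0.147 and 0.146 and Krt5 at 0.0261 and 0.058. Col1a2, the partner chain of Col1a1 in type I collagen, had 1 and 0 counts in the controls and 5 and 2 in the treated libraries. The summed level of the 9 was 650 and 661 CPM in the controls and 1202 and 1394 in the treated libraries. Most of this rise was Dcn alone, at 436 and 443 CPM in the controls and 959 and 998 in the treated libraries. Of the 5 tested 2 rose (edgeR), Dcn and Pecam1. The part of these shifts in the values near the peaks was not tested.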

How the data were processed

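FAIRE-seq and RNA-seq of Hepa-1 cells were analysed from deposited values. Per the labels, reads were demultiplexed with bcl2fastq and CASAVA 1.8. For FAIRE-seq, the authors aligned reads to mm10 with BWA and called peaks with MACS at default settings in 1 treated against 1 control library per regimen, without pooling. The deposited score is the p-value from MACS on a negative log10 scale, multiplied by 10. The MACS version and the treatment of reads with several matches are not given in the sources used here. For RNA-seq, the authors aligned reads with TopHat and deposited raw counts per Entrez gene without normalization. The counting tool and its use of strand are not given in the sources used here. Library totals ran from 32319676 to 37696116 counts.

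Peaks were placed by their centre on the RefSeq annotation of GRCm38. Sequences were searched on both strands in the central 200 bp, with the AP-1, BACH, CRE, FOXA, CEBP, HNF4A, ETS, E-box, AHR and NFY letters given in the results and a CTCF consensus. BACH matches also count as AP-1 matches, and TGANTCA includes TGACTCA. The background was every 200 bp window that meets the position rule. Each 50 bp stretch of a peak was matched exactly, on both strands, to the genome including the mitochondrial sequence. Shares have 95% Wilson intervals, which cover counting error only, and no test between peaks was made. Counts were normalized by TMM, filtered by filterByExpr and tested by quasi-likelihood in edgeR (two-sided, no block, threshold 0.05 after Benjamini-Hochberg adjustment over all tested genes). RPKM used the union of RefSeq exons. On simulated counts with 2 against 2 libraries, over 13619 genes, the test recovered 92 of 100 genes changed 4-fold. It recovered 130 of 200 changed genes in all, with 21 false calls among 151. The simulation gave both groups the same spread. In the data log2(CPM + 1) correlated at 0.978 between the treated libraries and 0.999 between the controls, so these rates need not hold for them.

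The regions and lists were chosen with earlier results of these data known. Regions named were the 10 with the highest score, also among peaks with at least 90% unique stretches and among AP-1 peaks. So were the 5 widest, those shared with the 25 µM list and those with a CTCF or BACH sequence or 2 AP-1 heptamers. The 3 nearest to and farthest from a TSS, 3 close to the limit on either side and groups of 3 or more were also named. Genes named were those nearest to 3 or more peaks and the 5 largest rises and falls past the threshold. Peaks with mitochondrial, telomere or AT-rich sequence were named after their values were seen. Alternatives were other distances to a TSS, curated transcripts, no pseudogenes, score and uniqueness minimums, other windows, flanking backgrounds, other rules for shared peaks, other normalizations and filters, DESeq2, a replicate block and each library left out. Added after the data were seen were GENCODE genes, peaks unique throughout, windows without masked bases and the nearest gene within the count table. Software was matplotlib 3.10.9, scipy 1.17.1, pandas 2.3.3 and numpy 2.4.6 in Python 3.11.15, and DESeq2 1.42.0 and edgeR 4.0.16 in R 4.3.3.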

Additional observations from a re-analysis of the deposited data

How the results depend on the processing

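With 1 FAIRE library per condition, no value of a peak has a replicate check, and without reads per peak no counting error could be given for it. The number of peaks between genes stayed between 286 and 393 under other distances to a TSS and other gene catalogues, and was 17 with a score of at least 100. The share of peaks with the AP-1 heptamer was 22.2% over the whole peak, 6.89% in the central 100 bp, 0% in the 17 with scores of 100 or more and 27.4% in peaks unique throughout. Its ratio to the background was 4.05 against windows 5000 bp to the side, 6.84 against windows 2000 bp to the side, and 7.51 in windows without masked bases. At a threshold of 90%, 104 peaks had too few unique stretches. Shared with the 25 µM list were 1 peak by an overlap of 50% of each peak, 0 with both scores at least 100, and 8 within 1000 bp. With curated transcripts the median distance to a TSS was 73202 bp.

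Of the 71 tested genes nearest to a peak, 9 differed with DESeq2 and 2073 did among all genes. Among 147 genes when only genes of the count table could be nearest, 10 differed (6.8%), against 4.63% of all tested genes. Leaving out 1 library at a time gave 1 to 53 nearest genes, 287 to 10995 of all genes and a median log2 fold change of -0.14 to -0.03. The high counts came without a treated library, where the lone treated sample is assumed to vary like the controls. The median was -0.22 without normalization, which moved the median of all genes by -0.11 and left the distance between them at -0.11. It was -0.16 without a filter and -0.05 for genes within 100000 bp. The labels number the libraries 1 and 2 in both groups and say nothing of what a number shares. The deviations of same-numbered libraries correlated at 0.134 across genes, over only 2 pairs. With the replicate block, 13 nearest genes and 2969 of all genes differed, and the median was -0.11. The cause of these shifts was not tested.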
